A study of Mus musculus with 34 samples.

Results

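The 30 genes described here encode ionotropic and metabotropic glutamate receptors and the scaffold proteins that hold them at the postsynaptic membrane. They were taken by their symbols from the 23951 genes listed for every mouse, and all 30 were found. The set holds 4 AMPA receptor subunits (Gria1 to Gria4), 5 kainate receptor subunits (Grik1 to Grik5), 7 NMDA receptor subunits (Grin1, Grin2a to Grin2d, Grin3a and Grin3b), the delta receptor subunit Grid1, 6 metabotropic receptors (Grm2, Grm3, Grm4, Grm5, Grm7 and Grm8) and 7 scaffolds (Dlg3, Dlg4, Homer1, Shank1, Shank2, Shank3 and Grip1). The measure was the FPKM value that the authors deposited for each gene and mouse, a fragment number scaled to transcript length and library size.

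Hippocampal RNA came from 4 control mice (Hdac1f/f), 5 Hdac1 cKO mice (Hdac1f/f, Nestin-Cre), 6 mice of the 5XFAD model (Hdac1f/f, 5XFAD) and 5 mice with both, called compound mice here (Hdac1f/f, Nestin-Cre, 5XFAD). RNA of GFAP+ nuclei, sorted from the cortex with antibodies to GFAP and NeuN, came from 3 control (Hdac1f/f) and 4 Hdac1 cKO (Hdac1f/f, Nestin-Cre) mice. Control and Hdac1 cKO hippocampal mice are labelled 13 to 14 months old, and 5XFAD and compound mice, like those used for nuclei, 13 months. The 5XFAD and compound samples were also registered apart from the control and Hdac1 cKO samples, and no label says whether the libraries were made together. In comparisons across these sets, age label and any difference in preparation cannot be told apart from the transgenes. Every group, controls included, carried the floxed Hdac1 alleles. Nestin-Cre acts in neural progenitors and so removes Hdac1 from neurons and astrocytes, not from microglia. The 5XFAD transgenes, a model of amyloid deposition, are driven by the Thy1 promoter, which is active mainly in neurons. No control mouse carried Nestin-Cre, so the Cre transgene and the loss of Hdac1 cannot be told apart.

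Glutamate carries most fast excitatory transmission in the hippocampus. AMPA receptors pass the fast synaptic current, and NMDA receptors admit calcium when glutamate binding coincides with depolarization, which starts long-term potentiation. NMDA receptors pair the obligatory subunit Grin1 with Grin2 subunits that set their kinetics. Metabotropic receptors signal through G proteins on both sides of the synapse and on glia, and the scaffolds Dlg4 (PSD-95), Homer and Shank link receptors to each other and to the cytoskeleton.

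Hdac1 was at 5.91 to 10.7 FPKM in control hippocampus, 2.36 to 3.03 in Hdac1 cKO and 1.15 to 2.52 in compound mice. All control values lay above both of these groups, which overlapped each other. In GFAP+ nuclei it was at 9.91 to 22.3 FPKM in control and 5.80 to 11.5 in Hdac1 cKO mice, and the ranges overlapped. Thy1 was at 303 to 315 FPKM in control mice and at 1563 to 2357 in the 11 mice with 5XFAD transgenes. The deposited values carry no fragment counts. Steps between small values place the depth of the hippocampal libraries at 0.754 to 2.35 times that of control 1. Choroid plexus markers were uneven, with sums from 56.5 to 20467 FPKM over the 20 hippocampal libraries. The sum of 9 neuron markers ran from 2055 to 2507 FPKM in the hippocampus and from 243 to 357 in GFAP+ nuclei. The sum of 8 astrocyte markers was 420 to 667 FPKM in the hippocampus and 2367 to 2767 in GFAP+ nuclei, so neuronal RNA was lower there but not absent. Compound mouse 4 had the highest sums of microglia and oligodendrocyte markers, at 775.5 and 1890 FPKM. In bulk tissue, fewer cells of a type and less RNA per cell cannot be told apart.

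In GFAP+ nuclei the 3 members with the highest control means were Gria2, Grin2c and Grik5. The 250 bases before their start sites are shown because the study examined oxidized guanine at promoters. The study probed longer stretches, at promoters of other genes. Sequences are from RefSeq (GRCm38.p6), 5′ to 3′ on the strand of the gene. Each matched the mm9 genome once, on the minus strand, directly upstream of the annotated gene for Grin2c and Grik5. Capitals mark the GC box core GGGCGG or its complement CCGCCC, the letters bound by SP family factors, and 2 of the cores in Grin2c share bases. The mm9 positions are chr3:80606758-80607007 for Gria2, chr7:25857389-25857638 for Grik5 and chr11:115128558-115128807 for Grin2c.

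Gria2: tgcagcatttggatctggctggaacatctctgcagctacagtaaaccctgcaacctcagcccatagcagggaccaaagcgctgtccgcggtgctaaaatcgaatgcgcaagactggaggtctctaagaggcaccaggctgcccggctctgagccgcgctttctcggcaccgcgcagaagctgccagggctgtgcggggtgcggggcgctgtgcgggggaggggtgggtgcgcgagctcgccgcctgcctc

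Grik5: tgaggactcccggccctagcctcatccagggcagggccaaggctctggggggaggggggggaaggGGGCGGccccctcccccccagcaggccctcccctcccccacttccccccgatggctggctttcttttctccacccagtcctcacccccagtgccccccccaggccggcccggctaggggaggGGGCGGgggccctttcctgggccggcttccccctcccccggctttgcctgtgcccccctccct

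Grin2c: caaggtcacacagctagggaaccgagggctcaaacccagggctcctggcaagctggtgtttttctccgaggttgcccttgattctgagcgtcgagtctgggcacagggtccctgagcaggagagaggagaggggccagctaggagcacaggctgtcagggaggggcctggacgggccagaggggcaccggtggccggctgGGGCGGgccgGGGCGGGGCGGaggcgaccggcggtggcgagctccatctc

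The core occurred 0 times in the Gria2 window, 2 times in Grik5 and 3 times in Grin2c, where GC content was 64.8%, 75.2% and 68.8%. Guanine alone made up 34.8%, 30.4% and 42.4% of these windows, in the same order. Over 32851 promoter windows of the same length, 32.7% held the core and median GC content was 52.4%. For 19 of the 30 members a promoter was listed, and 13 of their 28 windows held the core, in 12 members. These matches describe the letters alone.

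Gria2, the AMPA subunit whose presence makes the channel nearly impermeable to calcium, had the highest FPKM of all members in the hippocampus. Because 3′ libraries yield fragments from only one end of a transcript while FPKM divides by length, levels of different genes are comparable only roughly. In control hippocampus mean FPKM was 197 for Gria2, 84.3 for Gria1, 40.9 for Grin2b, 36.4 for Grm5, 30.9 for Gria3 and 25.5 for Grin1. Grin2d and Grin3b stood lowest, at means of 0.0585 and 0.102 FPKM, and both fell below the mean of 0.5 FPKM that a gene needed to be tested in the hippocampus. Of the 30 members, 28 were tested there.

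**Figure D1:**
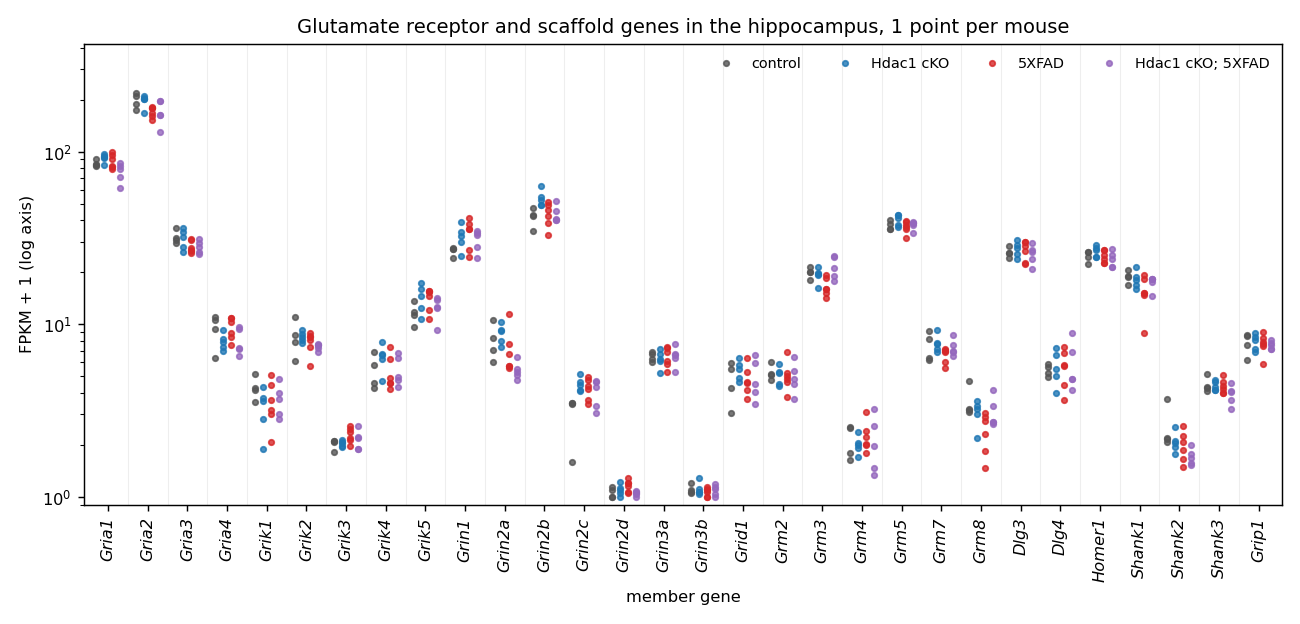
FPKM + 1 on a log axis for the 30 member genes, 1 point per hippocampal library, coloured by group. Gria2 lies highest, between 128 and 217 FPKM, Grin2d and Grin3b stay below 0.28 FPKM in every library, and for most genes the 4 groups cover the same range.

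Spread between the 20 hippocampal libraries differed among members. The coefficient of variation was 7.71% for Grm5, 8.92% for Homer1 and 10.7% for Gria1, and it reached 37.0% for Grm8, 43.9% for Grm4 and 47.0% for Shank2 among the members tested. The most variable tested members were also among those of lowest mean FPKM.

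The first comparison asked what loss of Hdac1 did in mice without the transgenes. Of the 28 members tested in Hdac1 cKO against control mice, 1 was called higher and 0 lower by the thresholds of the study. These ask for a 1.5-fold change with p under 0.05 before adjustment. Here the fold change was taken on FPKM + 1, which understates changes of low genes. By the same rule 3.36% of 14265 genes were called. At an unadjusted p under 0.05 alone, 2 members were higher and 0 lower (4 in all without Hdac1 cKO 1), while 11.7% of all genes passed and 4.91% passed in the higher direction. The median log2 fold change was 0.04 over the members (-0.02 without control 3) and -0.00068 over all genes. No member had an adjusted p under 0.05 (limma, Benjamini-Hochberg), and the lowest was 0.230.

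The 2 members past an unadjusted p under 0.05 were Grin2b and Grin2c. Grin2b (chr6:135679844-136123529, minus strand, mm9) encodes the subunit that gives slow channel closure and predominates early in development. Its FPKM was 46.3, 42.1, 33.6 and 41.4 in control mice and 47.7, 51.2, 47.9, 62.4 and 53.5 in Hdac1 cKO mice. Every Hdac1 cKO mouse lay above every control mouse. The log2 fold change was 0.36 ± 0.11 (SE), with an unadjusted p of 0.0073 and an adjusted p of 0.230 by limma. The exact permutation test gave p = 0.0159, the smallest it can give with 5 against 4 mice.

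Grin2c (chr11:115110483-115128557, minus strand, mm9) encodes a subunit known from cerebellar granule cells and astrocytes. It was at 0.588, 2.51, 2.47 and 2.45 FPKM in control mice and at 3.61, 3.18, 4.16, 3.08 and 3.42 in Hdac1 cKO mice. The groups did not overlap, and control 1 lay far below the other controls. The log2 fold change was 0.65 ± 0.23 (SE), with an unadjusted p of 0.0152 and an adjusted p of 0.288 by limma. Without control 1 it was 0.36 and Grin2c was no longer called, although p stayed under 0.05.

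Some neuron marker sums differed in the same comparison. The summed FPKM of 4 CA1 pyramidal neuron markers was 76.7 to 94.6 in control and 95.1 to 121.6 in Hdac1 cKO mice, and that of 5 excitatory neuron markers was 558 to 729 against 702 to 763. The excitatory sums overlapped, while the mean log2(FPKM + 1) of the same 5 markers, 4.60 to 4.90 against 4.92 to 5.06, did not. The sums of general neuron (2125 to 2433 against 2189 to 2507), inhibitory (785 to 974 against 747 to 986), CA3 (64.4 to 78.2 against 65.8 to 81.6) and dentate granule neuron markers (28.0 to 40.6 against 36.7 to 41.8) overlapped as well. Thalamic neuron markers overlapped by their sum, 39.6 to 124 against 37.2 to 44.7 FPKM. Their mean log2(FPKM + 1), 2.123 to 3.564 against 2.032 to 2.120, did not overlap. Astrocyte markers covered 420 to 474 against 422 to 482 FPKM, and choroid plexus markers 590 to 20467 against 59.8 to 1633. The part of these markers in the differences of Grin2b and Grin2c was not tested.

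The next comparison asked what the 5XFAD transgenes changed. Against the same 4 control mice, 0 members were called higher and 1 lower of 28 tested, where 2.95% of 14402 genes were called. At an unadjusted p under 0.05, 2 members were higher and 3 lower (1 in all without control 1), against 10.7% of all genes. The median log2 fold change was -0.02 over the members (0.01 without 5XFAD 6) and -0.01 over all genes. The lowest adjusted p of a member by limma was 0.375.

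The member called lower was Grm8 (chr6:27225121-28085178, minus strand, mm9), which encodes a presynaptic metabotropic receptor that lowers glutamate release. Its FPKM was 2.21, 2.09, 2.17 and 3.67 in control mice and ranged from 0.460 to 2.07 with a median of 1.54 in the 6 5XFAD mice. All 5XFAD values lay below all control values. The log2 fold change was -0.59 ± 0.23 (SE), with an unadjusted p of 0.0218 and an adjusted p of 0.375 by limma, and the exact permutation p was 0.00952. Without control 4, the highest control and the library with the highest thalamic marker sum (124 FPKM), the log2 fold change was -0.45 with an unadjusted p of 0.0861. It was -0.38 with both control 4 and 5XFAD 6 left out. With replicate number as a block Grm8 was no longer called. In compound mice, which carry the same transgenes, the log2 difference of Grm8 from control mice was -0.19 with overlapping groups (exact permutation p = 0.349). In Hdac1 cKO mice it was -0.20, also with overlap.

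The other 4 members past p under 0.05 had overlapping groups. Gria2 was at 217, 189, 173 and 210.1 FPKM in control mice and at 152 to 179.6 with a median of 172 in 5XFAD mice, for a change of -0.22 ± 0.09 (SE) on the log2 scale. Grm3, a receptor found on astrocytes and presynaptic endings, was at 17.1 to 20.3 FPKM in control and 13.2 to 18.4 in 5XFAD mice, for a change of -0.27 ± 0.11 (SE) on the log2 scale. In contrast, Grin1 was at 23.1 to 26.8 FPKM in control and 23.6 to 40.1 in 5XFAD mice, for a change of 0.32 ± 0.14 (SE) on the log2 scale. Grin2c was at 2.43 to 3.91 FPKM in 5XFAD mice, for a change of 0.55 ± 0.23 (SE) on the log2 scale. Their adjusted p values by limma were 0.409 to 0.440. Without control 1 none of these 4 kept an unadjusted p under 0.05, and the log2 fold change of Grin2c was then 0.27. Over the 10 fits that each left out 1 mouse, p stayed under 0.05 in 6 for Gria2, 2 for Grin1, 3 for Grm3 and 7 for Grin2c. Microglia markers summed to 99.5 to 141 FPKM in control and 335 to 450 in 5XFAD mice, astrocyte markers to 420 to 474 and 478 to 547, and inhibitory neuron markers to 785 to 974 and 453 to 823. The part of these markers was not tested.

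In compound mice 0 of 28 members were called against the same controls, where 4.24% of 14348 genes were called. With a pseudocount of 0.1 or fold changes from mean FPKM, 2 members were called. Fold changes from mean FPKM called 797 of all genes, against 608 in the main analysis. At an unadjusted p under 0.05, 0 members were higher and 2 were lower (1 in all without compound mouse 5), against 10.5% of all genes. The median log2 fold change was -0.04 over the members (-0.10 without compound mouse 5) and -0.01 over all genes. The 2 past p under 0.05 were Grin2a, described with the next comparisons, and Shank2, a scaffold that binds Homer and the Dlg-associated proteins. Each was called in 5 of 18 alternatives.

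Shank2 (chr7:151187833-151610399, plus strand, mm9) was at 1.07, 1.18, 2.69 and 1.15 FPKM in control mice and at 0.680, 0.520, 0.998, 0.768 and 0.562 in compound mice. Every compound mouse lay below every control mouse, and control 3 lay far above the other controls. Microglia markers summed to 404 to 775.5 FPKM in compound and 99.5 to 141 in control mice, and astrocyte markers to 555 to 667 and 420 to 474. Inhibitory neuron markers summed to 581.4 to 784.8 FPKM in compound and 785.2 to 974.2 in control mice. Their mean log2(FPKM + 1) overlapped, at 5.44 to 5.87 and 5.56 to 5.81. The part of these markers in the Shank2 difference was not tested. The log2 fold change was -0.53 ± 0.21 (SE), with an unadjusted p of 0.0282 and an adjusted p of 0.398 by limma, and an exact permutation p of 0.0159. Without control 3 it was -0.33 with an unadjusted p of 0.108, and p stayed under 0.05 in 6 of the 9 fits that each left out 1 mouse. Hdac1 cKO mice (0.770 to 1.52 FPKM) and 5XFAD mice (0.493 to 1.58 FPKM) lay between or across the other groups.

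Grin2a had the clearest difference among the members, between compound and Hdac1 cKO mice. Grin2a (chr16:9577803-9995014, minus strand, mm9) encodes the subunit that gives NMDA receptors faster closure and predominates in the adult forebrain. Its FPKM was 8.14, 6.34, 9.34, 7.02 and 8.23 in Hdac1 cKO mice and 4.48, 5.44, 4.25, 4.07 and 3.77 in compound mice, without overlap. In control mice it was 9.61, 6.04, 5.05 and 7.33, and in 5XFAD mice it ranged from 4.59 to 10.5 with a median of 5.24. Compound mice had the lowest mean and the smallest SD, 4.40 ± 0.64 FPKM (n = 5), and only compound mouse 2 reached into the control range.

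These groups differ in age label and registration as given above. Compound against Hdac1 cKO mice gave Grin2a a log2 fold change of -0.70 ± 0.13 (SE), with an adjusted p of 0.0138 by limma (0.0122 to 0.0780 over 19 alternatives, above 0.05 in 1, the fit with replicate number as a block). The exact permutation p was 0.00794, the smallest possible with 5 against 5 mice. Against control mice the log2 fold change was -0.54 ± 0.17 (SE), with an adjusted p of 0.253, and against 5XFAD mice it was -0.36 ± 0.18 (SE), with an unadjusted p of 0.0637. The interaction term, over all 20 mice, was -0.52 ± 0.26 (SE) with an unadjusted p of 0.0548, so a difference between the effects of the transgenes on the 2 backgrounds was not established for Grin2a. Leaving out each mouse in turn left the log2 difference from Hdac1 cKO mice between -0.77 and -0.64. Summed microglia markers were 404 to 775.5 FPKM in compound and 121 to 134 in Hdac1 cKO mice, and astrocyte markers 555 to 667 and 422 to 482. Neuron markers overlapped, at 2188 to 2434 and 2189 to 2507 FPKM, as did CA1 markers, at 68.5 to 100.7 and 95.1 to 121.6. Dentate granule neuron markers overlapped by their sum (28.7 to 40.9 and 36.7 to 41.8 FPKM) but not by their mean log2(FPKM + 1), which was 2.15 to 2.52 in compound and 2.58 to 2.71 in Hdac1 cKO mice. The part of these markers in the Grin2a difference was not tested.

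The ratio of Grin2b to Grin2a, a quantity that falls as NMDA receptors mature, was computed within each library. Its mean was 6.02 ± 0.98 (SD, n = 4) in control, 6.89 ± 1.56 (n = 5) in Hdac1 cKO, 7.47 ± 2.42 (n = 6) in 5XFAD and 9.73 ± 0.67 (n = 5) in compound mice. The compound values, 8.90 to 10.5, lay above all control values, 4.81 to 6.97, overlapped the 5XFAD values, 3.91 to 10.6, and met the upper end of the Hdac1 cKO values, 5.13 to 8.90. The ratio follows from the Grin2a and Grin2b values above and was not tested.

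**Figure D2:**
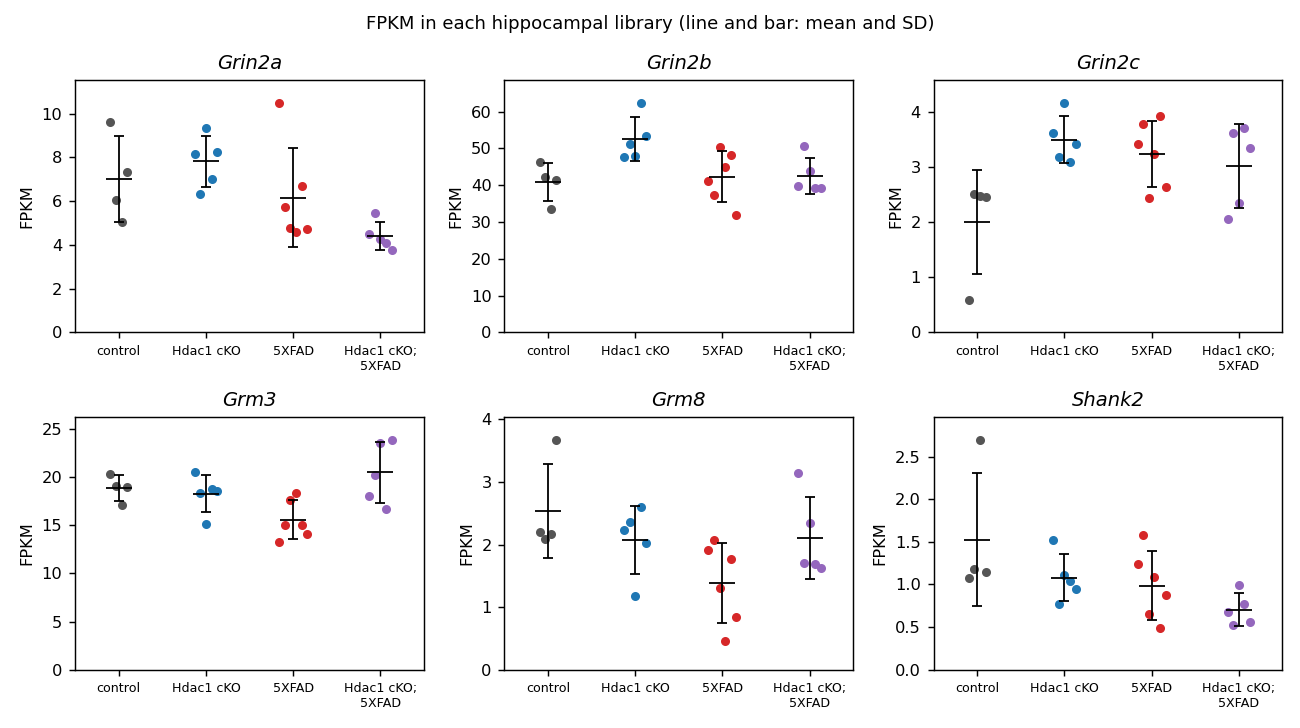
FPKM of Grin2a, Grin2b, Grin2c, Grm3, Grm8 and Shank2 in each hippocampal library by group, with the group mean as a line and the SD as a bar. Compound mice have the lowest mean Grin2a (values 3.77 to 5.44 FPKM), with 4 of 5 below every mouse of the other groups, and single controls stand apart for Grin2c (0.588), Grm8 (3.67) and Shank2 (2.69).

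Across all 28 members, the comparison of compound with Hdac1 cKO mice called 0 higher and 1 lower, and 3.55% of 14195 genes were called. Grin2a was also the 1 member with an adjusted p under 0.05, which 1.49% of genes had. At an unadjusted p under 0.05, 0 members were higher and 3 lower, against 10.3% of all genes. The median log2 fold change was -0.11 over the members (-0.16 without compound mouse 5) and -0.01 over all genes. Of the 28 members 20 were lower, and the share of all genes that were lower was not counted. Beside Grin2a the 2 were Grin2b and Gria1. Grin2b was at 39.9, 50.6, 44.0, 39.2 and 39.4 FPKM in compound mice, a log2 fold change of -0.30 ± 0.10 (SE) from Hdac1 cKO mice. Gria1, the AMPA subunit added to synapses in potentiation, was at 83.0 to 96.2 FPKM in Hdac1 cKO and at 60.5 to 84.3 in compound mice, a log2 fold change of -0.28 ± 0.10 (SE). Their adjusted p values by limma were 0.273 and 0.255, and 4 of 5 compound mice lay below all Hdac1 cKO mice for each. The CA1 and dentate granule neuron markers given beside Grin2a apply to these differences too, and their part was not tested.

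Loss of Hdac1 on the 5XFAD background, compound against 5XFAD mice, called 0 of 28 members, and 1.28% of 14326 genes. At an unadjusted p under 0.05, 1 member was higher and 0 lower (4 in all without 5XFAD 3), against 6.61% of all genes. The median log2 fold change was -0.03 over the members and -0.0005 over all genes. Over the members it was -0.07 without compound mouse 5 and -0.0004 without compound mouse 4. The member past p under 0.05 was Grm3, at 18.1, 20.2, 23.6, 16.7 and 23.8 FPKM in compound mice and 13.2 to 18.4 with a median of 15.0 in 5XFAD mice. In 3 of 5 cases a compound mouse lay above all 5XFAD mice. The log2 fold change was 0.37 ± 0.12 (SE), with an unadjusted p of 0.00843 and an adjusted p of 0.718 by limma. The summed FPKM of the 8 astrocyte markers was 478 to 547 in 5XFAD and 555 to 667 in compound mice. Their mean log2(FPKM + 1) overlapped, at 5.37 to 5.59 and 5.57 to 5.95. The part of these markers in the Grm3 difference was not tested.

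Whether the effect of Hdac1 loss differed with the transgenes was tested as an interaction over all 20 mice. It called 1 of 28 members (4.07% of 14389 genes) and passed an unadjusted p under 0.05 for 1 positive and 3 negative members (8.97% of genes). These 4 members became 7 without 5XFAD 6 and 6 with replicate number as a block. The lowest adjusted p of a member was 0.460 by limma. The called member, Grin2c, had an interaction of -0.73 ± 0.28 (SE) on the log2 scale. Its values were 3.08 to 4.16 FPKM in Hdac1 cKO, 2.43 to 3.91 in 5XFAD and 2.06 to 3.71 in compound mice, all against controls with 1 low library. Without control 1 the interaction was -0.45 and Grin2c was no longer called. For Gria1 it was -0.32 ± 0.13 (SE) and for Grm3 0.42 ± 0.16 (SE). Grik5 had -0.45 ± 0.21 (SE), and kept an unadjusted limma p under 0.05 in 12 of 27 alternatives.

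**Figure D3:**
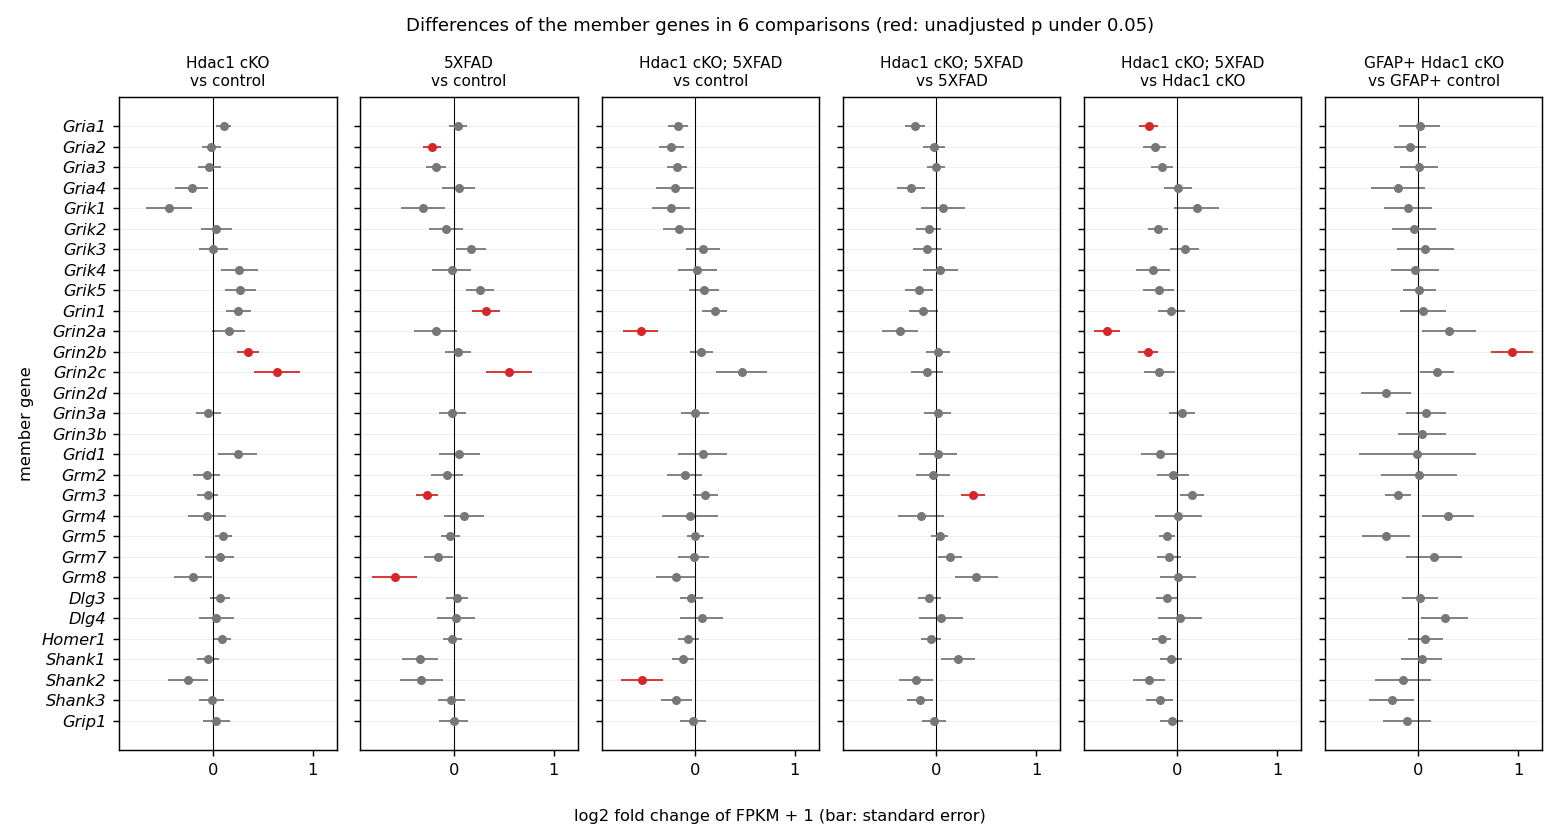
Log2 fold changes of FPKM + 1 with standard errors for the member genes in 6 comparisons, with members at an unadjusted p under 0.05 in red. The largest lie at 0.93 for Grin2b in GFAP+ nuclei and at -0.70 for Grin2a in compound against Hdac1 cKO mice, and the first 3 panels share the same 4 control mice.

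Grik5, Grm5, Dlg3 and Grid1, the leading members of other families, had no unadjusted p under 0.05 between any 2 hippocampal groups compared, and the interaction of Grik5 is given above. Grik5 (chr7:25794872-25857388, minus strand, mm9), a kainate subunit that needs a partner to form a channel, was at 8.69, 10.8, 12.5 and 10.3 FPKM in control mice. It ranged from 9.67 to 16.3 in Hdac1 cKO, 9.71 to 14.6 in 5XFAD and 8.23 to 13.2 in compound mice, and all groups overlapped. Grm5, a receptor bound by Homer that raises intracellular calcium, was at 39.0, 37.2, 34.8 and 34.4 FPKM in control mice and at 30.4 to 42.2 over the other 16. Dlg3 (SAP102), which anchors NMDA receptors, was at 27.3, 24.7, 23.2 and 24.7 FPKM in control mice and at 19.9 to 29.9 over the others. Grid1, which binds cerebellins rather than opening to glutamate, was at 4.95, 2.04, 3.24 and 4.47 FPKM in control mice and at 2.46 to 5.61 over the others.

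Of the 7 scaffolds, 0 were called in the main analysis of these comparisons, which called 1.28% to 4.24% of all genes. Shank2 was the 1 with an unadjusted p under 0.05, which 6.61% to 11.7% of all genes had. In compound against control mice it was called in 5 of 18 alternatives. Dlg4, the scaffold PSD-95, had a mean of 4.42 ± 0.43 FPKM (SD, n = 4) in control, 4.68 ± 1.30 in Hdac1 cKO (n = 5), 4.64 ± 1.40 in 5XFAD (n = 6) and 4.91 ± 1.95 in compound mice (n = 5). These groups overlapped. Grik2, a kainate subunit, was at 6.78 to 8.26 FPKM in Hdac1 cKO and 5.86 to 6.63 in compound mice without overlap. Its log2 difference was -0.19, and the 2 tests differed. The unadjusted limma p was 0.0791 and the exact permutation p was 0.00794, the smallest possible.

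Other genes of the glutamate synapse were counted for comparison: 3 further receptors, 14 auxiliary subunits of AMPA and kainate receptors and 21 further genes of the postsynaptic density. In Hdac1 cKO against control mice 0 of 35 tested were called, but 11 had an unadjusted p under 0.05 and all 11 were higher (7 without control 2). Over all genes 3.36% were called, 11.7% had p under 0.05 and 4.91% had it in the higher direction. The median log2 fold change over the 35 was 0.18. The 11 were the auxiliary subunits Cacng3, Cnih2 and Cnih3, and the postsynaptic genes Dlgap3, Dlgap4, Homer2, Homer3, Camk2a, Baiap2, Nlgn2 and Nrgn. Their adjusted p values by limma were 0.0780 or above. Nrgn is also one of the excitatory neuron markers, whose levels are given above, and the part of those markers was not tested.

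Cacng3, a transmembrane protein that carries AMPA receptors to the surface, was at 36.9, 41.2, 33.1 and 32.7 FPKM in control and 50.4, 51.2, 52.5, 50.2 and 45.3 in Hdac1 cKO mice, without overlap. Its log2 fold change was 0.46 ± 0.09 (SE), with an adjusted p of 0.0780 by limma. Cnih3, a cornichon that slows AMPA receptor closure, was at 18.7 to 23.1 FPKM in control mice, 26.9 to 36.4 in Hdac1 cKO and 23.5 to 33.6 in 5XFAD mice, above all controls in both. Baiap2, an actin regulator of spines, was at 53.1 to 60.3 FPKM in control and 70.7 to 77.8 in Hdac1 cKO mice.

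In 5XFAD against control mice 2 of 37 of these genes had an unadjusted p under 0.05 (Cnih3 and Homer3, both higher), against 10.7% of all genes. The count was 1 without control 3 and 4 without 5XFAD 3. In compound against control mice 3 of 35 had an unadjusted p under 0.05 (Cacng3 and Homer3 higher, Neto1 lower), against 10.5% of all genes. These 3 became 5 without compound mouse 1. Compound against 5XFAD mice called 2 of 36 lower, Cacng4 and Cacng8, against 1.28% of all genes. Cacng4 had a mean of 0.814 FPKM in 5XFAD and 0.154 in compound mice and was tested only through the 5XFAD group, so its call is no support for a difference. For Cacng8, p stayed under 0.05 in 11 of 11 fits that left out 1 mouse. Compound against Hdac1 cKO mice had 1 of 35 higher and 8 lower at p under 0.05, against 10.3% of all genes, and these 9 became 4 without compound mouse 1. It called Cacng7 higher and Cacng8 and Arc lower, against 3.55% of all genes. Cacng7 had a mean of 0.347 FPKM in Hdac1 cKO and 1.44 in compound mice and was tested only through the compound group, so its call is no support for a difference. Over the 10 fits that left out 1 mouse, p stayed under 0.05 in 3 for Cacng8 and 10 for Arc. Microglia, astrocyte and dentate granule neuron markers did not overlap between these groups (the last by mean log2 only), with the values given beside Grin2a, and their part was not tested. Arc, the activity-induced gene that drives AMPA receptor uptake, was at 7.58, 11.4, 15.4, 15.0 and 7.59 FPKM in Hdac1 cKO and 6.32, 5.61, 6.70, 5.95 and 10.6 in compound mice, and these overlapped. Cacng4 and Cacng7 are listed at 0 in several libraries, and Cacng8 was at 0 to 1.04 FPKM in 4 compound mice and at 5.99 in compound mouse 4.

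In the interaction, 2 of 35 were positive and 8 negative at p under 0.05, against 8.97% of all genes, and 1 positive (Cacng7) and 4 negative (Cacng8, Cnih3, Dlgap3 and Arc) were called, against 4.07%. The mean of Cacng7 in Hdac1 cKO mice lay below the filter, as given above, so its interaction call is no support for a difference either. Over the 20 fits that left out 1 mouse, p stayed under 0.05 in 6 each for Cacng7 and Arc, 19 for Cacng8 and 20 each for Cnih3 and Dlgap3. Baiap2 had -0.48 ± 0.14 (SE) and Cnih3 -0.61 ± 0.18 (SE) on the log2 scale, with adjusted p values of 0.338 and 0.348 by limma. No gene of the whole table reached an adjusted p under 0.05 in the interaction by limma, while 1290 had an unadjusted p under 0.05.

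**Figure D4:**
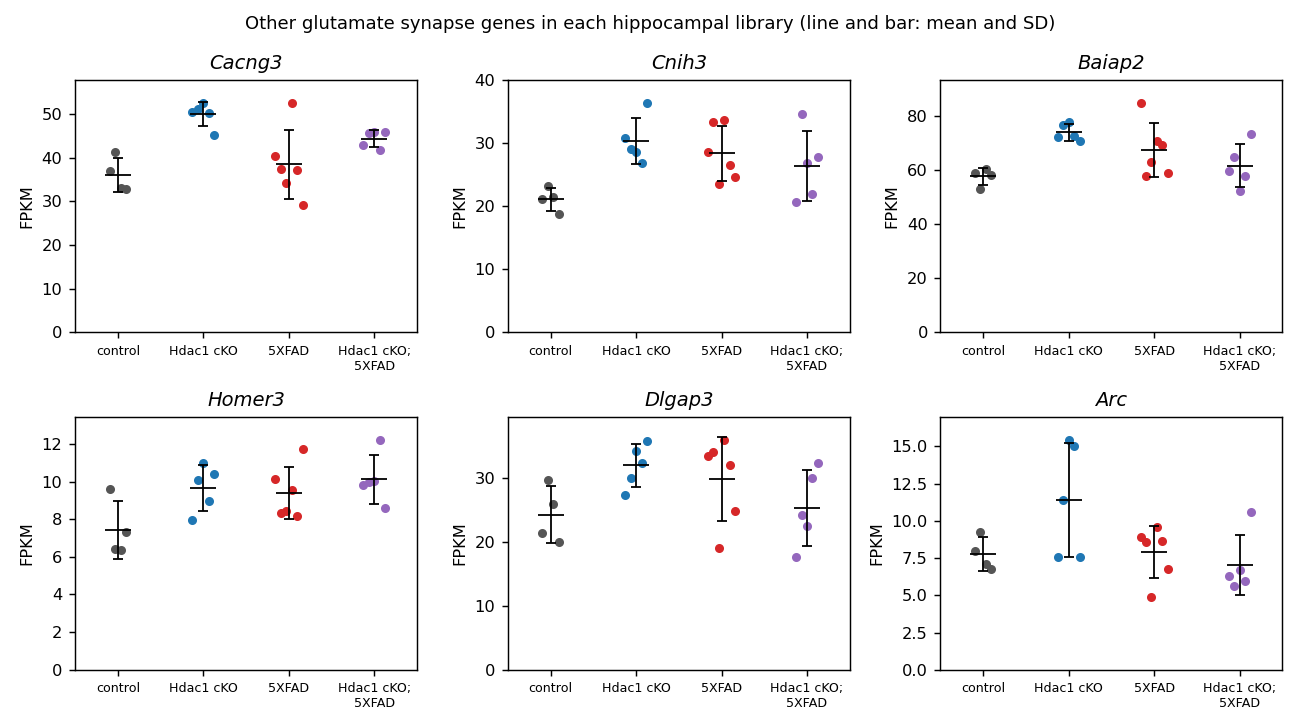
FPKM of Cacng3, Cnih3, Baiap2, Homer3, Dlgap3 and Arc in each hippocampal library by group, with mean and SD. For Cacng3, Cnih3 and Baiap2 all Hdac1 cKO mice (45.3 to 52.5, 26.9 to 36.4 and 70.7 to 77.8 FPKM) lie above all control mice.

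The GFAP+ nuclei held a different set of leading receptors. In control GFAP+ nuclei the means were 269 FPKM for Gria2, 215 for Grin2c, 73.8 for Grik5 and 72.2 for Grm3, followed by Gria1 at 21.6. Grin2c ranked 2 of 30 there and 25 of 30 in control hippocampus, where its mean was 2.01 FPKM, and Grik5 ranked 3 against 11. In the opposite direction Grm5 ranked 16 against 4 and Grin2a ranked 29 against 14. Over the 30 members the Spearman rho of the 2 sets of means was 0.636, a description only. The sets differ in tissue, RNA fraction and library method (3′ ends against SMART-Seq v4), so levels were not tested between them.

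As a share of the summed FPKM of the 7 NMDA subunits, Grin2c made up 87.7% ± 2.90 (SD, n = 3) in control GFAP+ nuclei and 2.52% ± 1.24 (SD, n = 4) in control hippocampus, and Grin1 made up 2.44% and 31.7%. Of the 4 AMPA subunits, Gria2 made up 89.8% ± 0.96 (n = 3) and 61.4% ± 1.87 (n = 4). Grin2c lay at 195 to 226 FPKM in control and 204 to 316 in Hdac1 cKO GFAP+ nuclei, and Gria2 at 226 to 334 and 240.5 to 272. Both overlapped between genotypes. These 2 subunits carry promoter windows with 3 and 0 GC box cores, as shown above. A relation of the cores to these levels or to genotype was not tested.

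Loss of Hdac1 called 1 of 29 members tested higher and 0 lower in GFAP+ nuclei, where 2.58% of 15070 genes were called. The same member was the 1 with an unadjusted p under 0.05, against 4.70% of all genes. The median log2 fold change was 0.01 over the members (-0.07 to 0.08 with single mice left out) and -0.01 over all genes. Grm8 was below the mean of 0.5 FPKM and was not tested.

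Grin2b was the member called. Its FPKM was 13.8, 11.8 and 21.4 in control nuclei (replicates 1, 3 and 4) and 31.6, 34.8, 29.4 and 24.8 in Hdac1 cKO nuclei, and every Hdac1 cKO value lay above every control value. The log2 fold change was 0.93 ± 0.21 (SE), with an unadjusted p of 0.00104 and an adjusted p of 0.978 by limma. The exact permutation p was 0.0571, the smallest that 4 against 3 mice allow, so this test could not reach 0.05. The summed neuron markers were 243 to 357 FPKM in control and 267 to 299 in Hdac1 cKO nuclei, and the astrocyte markers were 2367 to 2716 and 2480 to 2767. Oligodendrocyte precursor markers, which also mark cells with glutamate receptors, were at 73.7 to 143 and 53.4 to 127 FPKM. The neuron, astrocyte and precursor sums each overlapped between genotypes. Choroid plexus markers were at 19.2 to 155.9 FPKM in control and 117 to 271 in Hdac1 cKO nuclei. The part of any of these markers in the Grin2b difference was not tested.

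Grm3 was at 78.9, 70.7 and 67.0 FPKM in control nuclei and 65.3, 60.6, 63.5 and 59.5 in Hdac1 cKO nuclei, without overlap. Its log2 fold change was -0.21 ± 0.13 (SE), with an unadjusted limma p of 0.137. Shank3 was at 1.85 to 2.16 and 1.16 to 1.68 FPKM, also without overlap, and did not pass. Grin2a was at 0.622, 0.834 and 0.130 FPKM in control and 0.706 to 1.12 in Hdac1 cKO nuclei, which overlapped. Among the 36 other glutamate synapse genes tested, 1 was called lower, Cacng5, against 2.58% of all genes. At an unadjusted p under 0.05, 0 were higher and 2 lower (0 to 3 in all with single mice left out), against 4.70% of all genes. Cacng5 was at 1.30, 2.78 and 4.31 FPKM in control and 1.01 to 1.37 in Hdac1 cKO nuclei. Without control 4 its log2 fold change moved from -0.75 to -0.46, with an unadjusted p of 0.154, and p also passed 0.05 without control 3, Hdac1 cKO 1 or Hdac1 cKO 2.

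**Figure D5:**
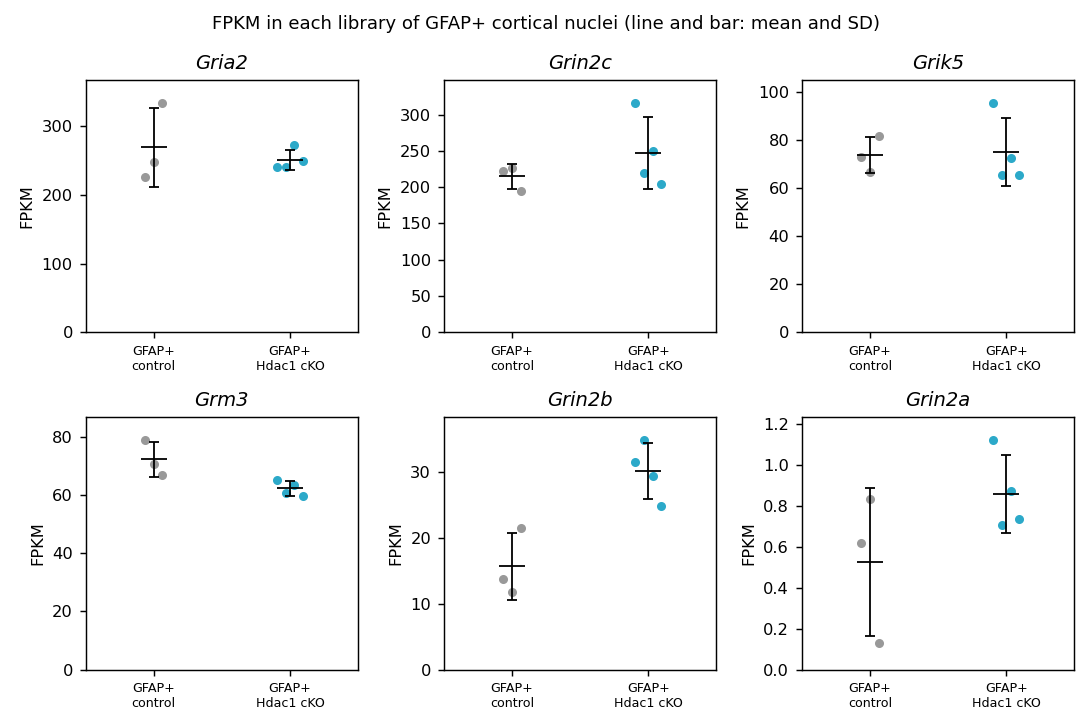
FPKM of Gria2, Grin2c, Grik5, Grm3, Grin2b and Grin2a in each library of GFAP+ cortical nuclei, for 3 control and 4 Hdac1 cKO mice, with mean and SD. Grin2b lies at 11.8 to 21.4 FPKM in control and 24.8 to 34.8 in Hdac1 cKO nuclei, while Gria2, Grin2c and Grik5 overlap.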

How the data were processed

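RNA-seq of 20 hippocampal and 7 GFAP+ nuclei samples was analysed. GFAP+ control 2 and the 6 samples of ChIP-seq are not analysed here. The authors deposited FPKM values, 1 per gene and mouse. They aligned reads with Tophat2 and ran Cufflinks 2.0.0 with the UCSC mm9 annotation, per the study's methods and the submitters' processing notes. Hippocampal libraries were 3′ Digital Gene Expression and GFAP+ libraries SMART-Seq v4. FPKM divides by transcript length, which a 3′ library does not sample, so it moves genes against the filter and pseudocount. Numbers of fragments are not given, so no count model or interval was used.

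Values were transformed to log2(FPKM + 1), so fold changes of low genes are understated. The test was that of limma 3.58.1 (trend, robust; R 4.3.3) for genes whose mean FPKM reached 0.5 in the libraries compared, with Benjamini-Hochberg adjustment over all genes tested. The study's thresholds were used (fold change of at least 1.5 and p under 0.05), and its methods name no test. For single members an exact permutation test, two-sided, was run in scipy 1.17.1. The fits were tested on simulated data.

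Members and lists were chosen with earlier results of these data known. Members were given mouse by mouse (lowest, median and highest for groups over 5) where called or where p was under 0.05 without overlap. The member of highest mean FPKM in each family was described too, and the others by range and counts. Grm3, Cacng3 and Arc were also given mouse by mouse, chosen after their values were seen. The share of all genes whose groups did not overlap was not counted. Alternatives were a pseudocount of 0.1, other filters and scalings, limma without trend and robust, 1 fit of all 4 groups, a replicate block and each sample left out. The labels do not name batches. Whether Cufflinks used strand is not given in the sources used here, and Grip1 and Grin3b overlap a gene on the opposite strand at their 3′ ends in the mm9 annotation (GENCODE vM1). Mice are taken as separate animals, and no 2 libraries were identical.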

Additional observations from a re-analysis of the deposited data

Results flagged for a closer look

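Of 150 combinations of member and group with 4 or more samples, 9 held a library far from the rest of its group by Dixon's criterion, which marks about 1 group in 20 by chance. Control 1 was low for Grin2c (0.588 FPKM, others 2.45 to 2.51) and for Grik3 (0.817, others 1.09 to 1.11). Control 4 was high for Grm8 (3.67, others 2.09 to 2.21) and control 3 for Shank2 (2.69, others 1.07 to 1.18). Among 5XFAD mice, replicate 1 was high for Grin2a (10.5, others 4.59 to 6.68). Hdac1 cKO replicate 3 was low for Gria2 (166, others 200.5 to 208) and high for Grin3b (0.279, others 0.0425 to 0.107). Compound replicate 4 was low for Grm5 (32.6, others 36.6 to 37.9) and Shank1 (13.5, others 16.4 to 17.4). That library also had the highest microglia and oligodendrocyte marker sums, and their part was not tested.

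The effect of Hdac1 loss differed between mice with and without the 5XFAD transgenes at an unadjusted p under 0.05 for 4 of 28 members and 8.97% of all genes, with no member at an adjusted p under 0.05 by limma. The interactions were -0.32 for Gria1, -0.45 for Grik5, -0.73 for Grin2c (-0.45 without control 1) and 0.42 for Grm3 on the log2 scale.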

How the results depend on the processing

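Alternatives were labelled for members with p under 0.05, for called synapse genes and for counts of genes with p under 0.05. Of these values 743 stayed the same, 77 were weaker, 18 stronger and 47 moved, and 0 reversed. A gene stayed the same if it remained called or remained uncalled, and a count if it changed no more than 1.5-fold. The labels do not follow p: Grin1 in 5XFAD against control mice, never called, had p under 0.05 by limma in 11 of 20 alternatives. The number of members called was 1 for Hdac1 cKO against control and 0 to 1 with single mice left out. For 5XFAD against control it was 1 in the main analysis, 2 with a pseudocount of 0.1 or fold changes from mean FPKM, 0 with the replicate block and 0 to 2 with single mice left out. For compound against control it was 0, 2 with a pseudocount of 0.1 or fold changes from mean FPKM, and 0 to 1 with single mice left out. The interaction called 1 member and 1 to 2 with single mice left out, but not Grin2c without control 1. Same-numbered mice did not deviate together (correlations from -0.113 to 0.0778), so the numbers do not pair the mice. With the replicate block, Grin2a in compound against Hdac1 cKO mice kept its log2 fold change of -0.70 with an adjusted p of 0.0780 by limma, and its other alternatives had adjusted p values from 0.0122. In 5XFAD against control mice, 5 members had p under 0.05 and 1 did with the replicate block, which also takes out mice whose number has no partner. Fold changes from mean FPKM raised the count of all genes called from 425 to 688 for 5XFAD against control and from 184 to 341 for compound against 5XFAD mice. An alternative chosen after seeing the data left out control 4 and 5XFAD 6, the libraries with the highest thalamic markers. Then 2 members had p under 0.05, and Grm8 had a log2 fold change of -0.38 with an unadjusted p of 0.149. The depth behind single values is unknown.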
